A study of Mus musculus with 24 samples.

Results

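The fatty acid binding proteins examined here are Fabp1, Fabp2, Fabp3, Fabp4, Fabp5 and Fabp7, the 6 genes named for this description among the 54532 genes of the count table. They were measured by RNA-seq in 24 h fasted livers of male mice aged 8 to 10 weeks, in 6 genotype groups of 4 livers each. The control group ff;ff carried floxed alleles of both Cpt2 and Rab30 and no Cre. Per the labels these were littermates of the DKO mice, and the labels do not say so for Cpt2L-/- or Rab30L-/-, so litter and genotype cannot be told apart in those comparisons. The liver-specific knockouts, 3 groups, carried albumin-Cre, which acts in hepatocytes and leaves the other cells of the liver unrecombined: Rab30L-/- (Rab30 floxed), Cpt2L-/- (Cpt2 floxed) and DKO (both floxed). Rab30KO mice lacked exon 4 of Rab30 in all tissues, and Rab30 Ctrl mice were their wild-type littermates. Whole liver was sequenced, so a lower level from fewer cells of a type and one from less RNA per cell cannot be told apart. Total counts ran from 11801027 to 24497738 per library, and each member had a row for every library.

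Fatty acid binding proteins are small cytosolic carriers that fold into a barrel around a long-chain fatty acid or a related lipid and move it between membranes, enzymes and nuclear receptors. Each is best known from the tissue for which it was named: Fabp1 from liver, Fabp2 from intestine, Fabp3 from heart and muscle, Fabp4 from adipocytes and macrophages, Fabp5 from epidermis and Fabp7 from brain. Fabp1 is a classical target of Ppara, the fatty acid receptor that drives the hepatic fasting response, and Fabp4 is one of Pparg. Cpt2 is the inner mitochondrial membrane enzyme needed for long-chain fatty acids to be oxidised, and Rab30 is a small GTPase of the Golgi.

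The genes lie on 4 chromosomes of GRCm38 and the protein-coding transcript of each has 4 exons. Fabp1 lies at chr6:71199827-71205023 (plus strand), Fabp2 at chr3:122895072-122899506 (plus strand) and Fabp7 at chr10:57784881-57788450 (plus strand). Fabp5 at chr3:10012548-10016607 (plus strand) and Fabp4 at chr3:10204088-10208576 (minus strand) are neighbours, 187.5 kb apart. Fabp3 at chr4:130308595-130315463 (plus strand) is on the chromosome of Cpt2, 22.4 Mb away from it.

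The bases upstream of Fabp1, Fabp2 and Fabp3 are shown because Fabp2 and Fabp3 were called higher against ff;ff in Cpt2L-/- and DKO, and Fabp1 in Cpt2L-/- but not in DKO, and because the element through which Ppara and its partner bind DNA, a direct repeat with 1 base between its copies, can be searched as letters. The stretches are from RefSeq (GRCm38.p6), plus strand, and stop before the earlier of the gene starts of RefSeq and GENCODE. Fabp1 is chr6:71199629-71199826, Fabp2 is chr3:122894822-122895071 and Fabp3 is chr4:130308488-130308594. Capitals mark a match, on either strand, to AGGNCA followed by 1 base of any kind and a further AGGNCA, where N is any base.
Fabp1: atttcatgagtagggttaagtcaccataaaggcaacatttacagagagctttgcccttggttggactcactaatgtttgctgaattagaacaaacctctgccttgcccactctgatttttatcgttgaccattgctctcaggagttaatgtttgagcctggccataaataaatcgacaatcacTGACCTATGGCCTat
Fabp2: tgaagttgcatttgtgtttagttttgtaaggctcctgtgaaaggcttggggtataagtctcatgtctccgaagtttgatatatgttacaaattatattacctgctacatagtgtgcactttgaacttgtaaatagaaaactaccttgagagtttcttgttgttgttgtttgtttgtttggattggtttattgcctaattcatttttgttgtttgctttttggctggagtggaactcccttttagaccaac
Fabp3: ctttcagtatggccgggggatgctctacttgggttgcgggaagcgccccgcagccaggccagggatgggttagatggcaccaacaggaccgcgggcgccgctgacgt
The only match was in Fabp1, on the minus strand, and ended 55 bases before the RefSeq start. Over the 300 bases from 250 before to 50 after each RefSeq start, 125 of 32851 mouse promoters (0.381%) held these letters. The same windows of Fabp2, Fabp3 and Fabp7 did not, which says only that these letters are not in them. Fabp4 and Fabp5 were not in the promoter table.

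Fabp1 was the most abundant member in every group. Per length, its FPKM as deposited (fragments scaled for transcript length and library depth) averaged 970 ± 493 (SD, n = 4) in ff;ff, against 78.1 ± 30.2 for Fabp2 and 2.30 ± 0.66 for Fabp4. Fabp3, Fabp5 and Fabp7 were at 0.0919 ± 0.184, 0.529 ± 0.0481 and 1.92 ± 0.847 FPKM in the same livers. The listed lengths of Fabp4 and Fabp5 include a transcript with a retained intron and are 5.01 and 3.61 times the spliced coding transcript. Divided by the spliced transcript instead, Fabp4 in ff;ff was at 11.3 ± 3.16 CPM per kilobase (CPM, counts scaled to library depth) and Fabp5 at 1.88 ± 0.171. Fabp1 and Fabp2 were first and second on both scales. On the spliced scale Fabp1 made up 89.7% ± 4.59 of the summed level of the 6 members in ff;ff, 88.7% ± 3.04 in Cpt2L-/- and 82.4% ± 2.89 in DKO.

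**Figure D1:**
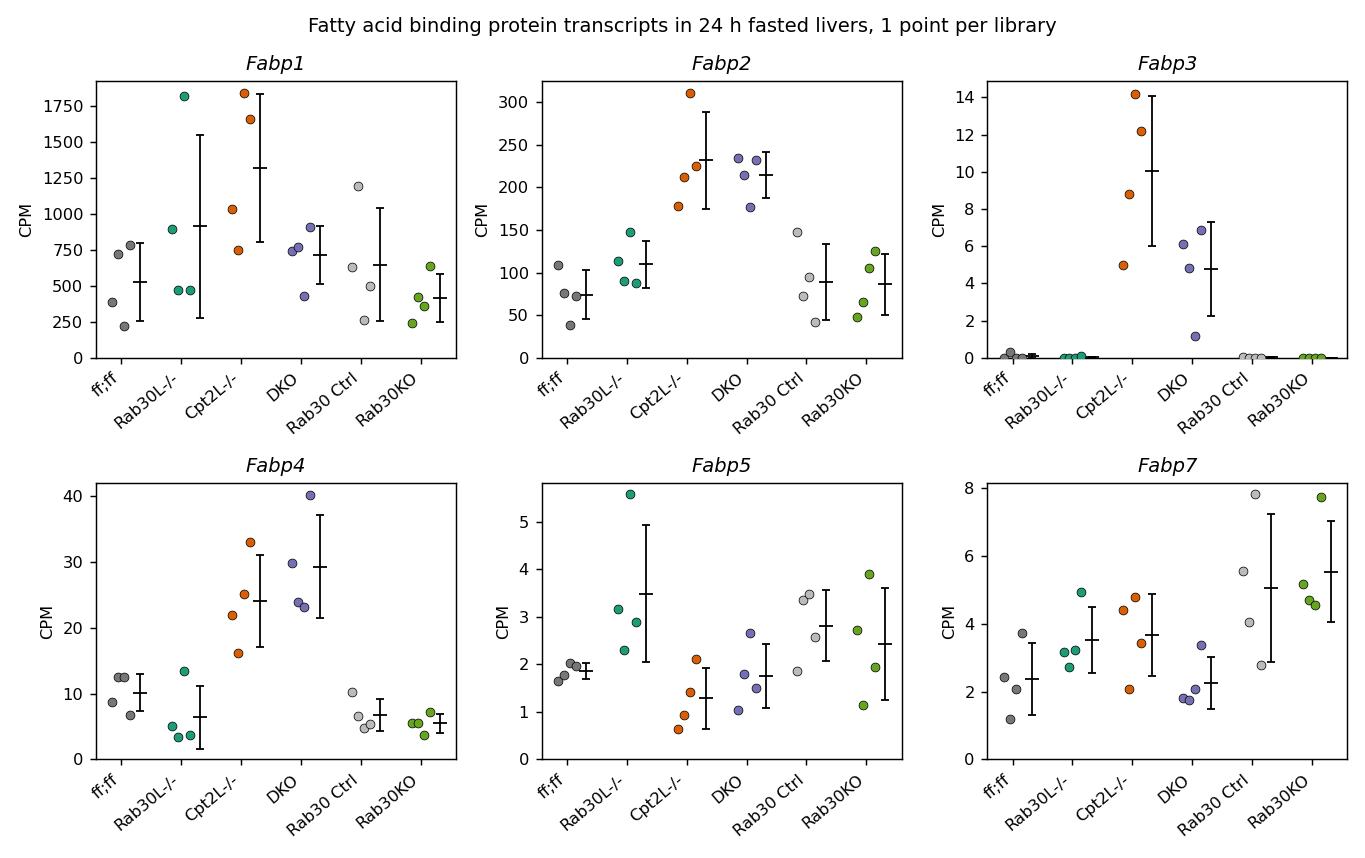
Level of each fatty acid binding protein transcript in CPM (linear axes from 0) in 6 genotype groups; each point is 1 liver and the bar beside the points is the mean ± SD (n = 4), cut at 0. Fabp2, Fabp3 and Fabp4 sit higher in Cpt2L-/- and DKO than in all other groups with no overlap, whereas Fabp1, Fabp5 and Fabp7 overlap between neighbouring groups.

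Levels between groups are given as CPM of the TMM-scaled library, and differences as log2 fold changes with the standard error (SE) from edgeR's quasi-likelihood test, adjusted for all genes tested by Benjamini-Hochberg. A gene counted as called when its adjusted p was below 0.05 and it differed by 1.2-fold or more. In Cpt2L-/- against ff;ff, 4 of the 6 members were called, all higher (Fabp1, Fabp2, Fabp3 and Fabp4), where 23.8% of the 13270 genes tested were called and 11.9% were called higher. In DKO against ff;ff, 3 members were called, all higher (Fabp2, Fabp3 and Fabp4), where 16.1% of 13389 genes were called and 7.87% were called higher. The same 3 were called higher in DKO against Rab30L-/-, where 30.7% of 13292 genes were called and 14.9% were called higher. No member was called in DKO against Cpt2L-/- (2.71% of 13306 genes called), in Rab30L-/- against ff;ff (0.479% of 13367) or in Rab30KO against Rab30 Ctrl (0.022% of 13656), nor for the interaction defined below for Fabp1 (4.06% of 14063). At an unadjusted p under 0.05 the edgeR test put 3 members in DKO against Cpt2L-/- (Fabp1, Fabp3 and Fabp7), 1 in Rab30L-/- against ff;ff (Fabp5), 0 in Rab30KO against Rab30 Ctrl and 2 in the interaction (Fabp1 and Fabp7), while DESeq2 called 1, 0, 0 and 0 of them and limma-voom none. For the unadjusted threshold, DESeq2 and limma-voom no share of all genes is given, so those counts have no background here. Both comparisons with ff;ff above use the same ff;ff livers and both with calls in DKO use the same DKO livers, so they are not independent of each other. All 6 members passed the filter on low counts except that Fabp3 did not in the comparisons of Rab30L-/- with ff;ff and of Rab30KO with Rab30 Ctrl. Elsewhere Fabp3 passed only through its reads in Cpt2L-/- or DKO, so its calls against ff;ff and Rab30L-/- were favoured in advance. They add no support to the counts of members above.

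**Figure D2:**
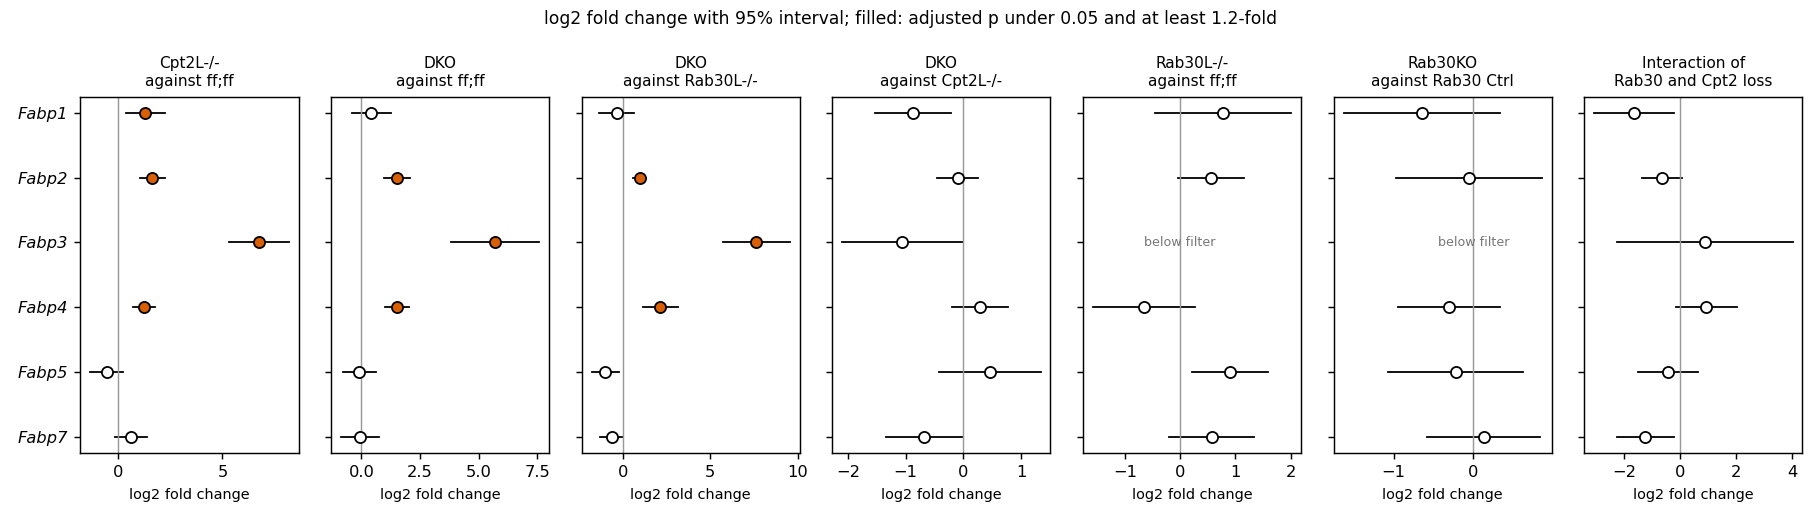
log2 fold change of each member in the 6 comparisons and in the interaction of Rab30 and Cpt2 loss, with its 95% interval; filled points passed the adjusted p and the 1.2-fold threshold, and each panel has its own axis. Fabp3 changed by 6.74 in Cpt2L-/- against ff;ff, beyond every other member, and no point is filled in the 4 panels on the right.

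Fabp1, the liver form, was called in Cpt2L-/- and not in DKO, and differed widely between livers. Its level in the ff;ff livers was 390, 718, 217 and 786 CPM, and in the Cpt2L-/- livers 1036, 745, 1840 and 1655 CPM. In Cpt2L-/-, 3 of the 4 livers lay above the highest ff;ff liver and the other one lay inside the ff;ff range. Cpt2L-/- exceeded ff;ff by 1.31 ± 0.41 (SE) on the log2 scale, 2.48-fold with a 95% interval of 1.30 to 4.71, at adjusted p = 0.0455. When livers were left out one at a time, 4 of the 8 fits no longer called it, those without ff;ff replicate 1 (adjusted p = 0.126) and Cpt2L-/- replicates 1, 3 and 4 (adjusted p = 0.0617, 0.114 and 0.118), and over the 6 other settings the adjusted p ran from 0.00215 to 0.173.
The DKO livers had 743, 766, 430 and 908 CPM of Fabp1, which overlapped the ff;ff livers throughout except in replicate 4. DKO differed from ff;ff by 0.43 ± 0.37 in log2 fold change (adjusted p = 0.50; 95% interval −0.41 to 1.26), and against Cpt2L-/- it was −0.88 ± 0.30 (adjusted p = 0.133; 95% interval −1.53 to −0.22). Beside this second value, the DESeq2 Wald test gave adjusted p = 0.0309, and the range over the 6 settings was 0.0309 to 0.403.
Without Cpt2 loss, Fabp1 in the Rab30L-/- livers was at 894, 471, 1816 and 472 CPM. Replicates 1 and 3 stood above all ff;ff livers, and the difference from ff;ff did not exceed the spread (log2 fold change 0.77 ± 0.54, adjusted p = 0.642), with −0.02 under limma-voom with sample quality weights. DKO against Rab30L-/- gave −0.35 ± 0.44 (adjusted p = 0.588), which became 0.24 under limma-voom and 0.20 without Rab30L-/- replicate 3. The interaction, the change with Rab30 loss in Cpt2-deleted livers less that in livers with Cpt2, was −1.65 ± 0.67 for Fabp1 (adjusted p = 0.169), which became −0.73 under limma-voom (adjusted p = 0.386) and −1.09 without Rab30L-/- replicate 3 (adjusted p = 0.324).
In the whole-body series the Rab30KO livers had 242, 420, 356 and 637 CPM and the Rab30 Ctrl livers 627, 1194, 265 and 500 CPM. The ranges overlapped, with a log2 fold change of −0.65 ± 0.44 and a 95% interval of −1.63 to 0.34.

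Fabp1 varied between livers of the same genotype more than most genes at its level. The pooled SD within groups was 0.745 on the log2 scale, above that of 98.1% of the 264 genes within 1 log2 unit of its mean level, whose median was 0.284. Fabp2 (0.523) lay above 96.2% and Fabp4 (0.527) above 90.5% of the genes at their own levels, whereas Fabp5 and Fabp7 lay above 57.1% and 67.2%. The deviation of Fabp1 from its group mean was also compared with the mean deviation of 235 short protein-coding genes (listed length up to 1000 bases), a comparison chosen after the data had been seen. Over the 24 livers Pearson's r was 0.633 (adjusted p = 0.0099) and Spearman's rho 0.652 (adjusted p = 0.0125), by a two-sided permutation test within groups with 100000 resamples, adjusted over the 5 members compared. Without the 2 livers farthest from the median of the short genes, r was 0.558. For Fabp2, Fabp4, Fabp5 and Fabp7, r was 0.233, 0.253, 0.43 and 0.113, with adjusted p of 0.387, 0.387, 0.209 and 0.663. Between groups, the short genes averaged 4.08 ± 0.121 log2 CPM in ff;ff, 4.18 ± 0.165 in Rab30L-/-, 3.89 ± 0.358 in Cpt2L-/-, 3.82 ± 0.197 in DKO, 3.99 ± 0.26 in Rab30 Ctrl and 3.88 ± 0.107 in Rab30KO.

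**Figure D3:**
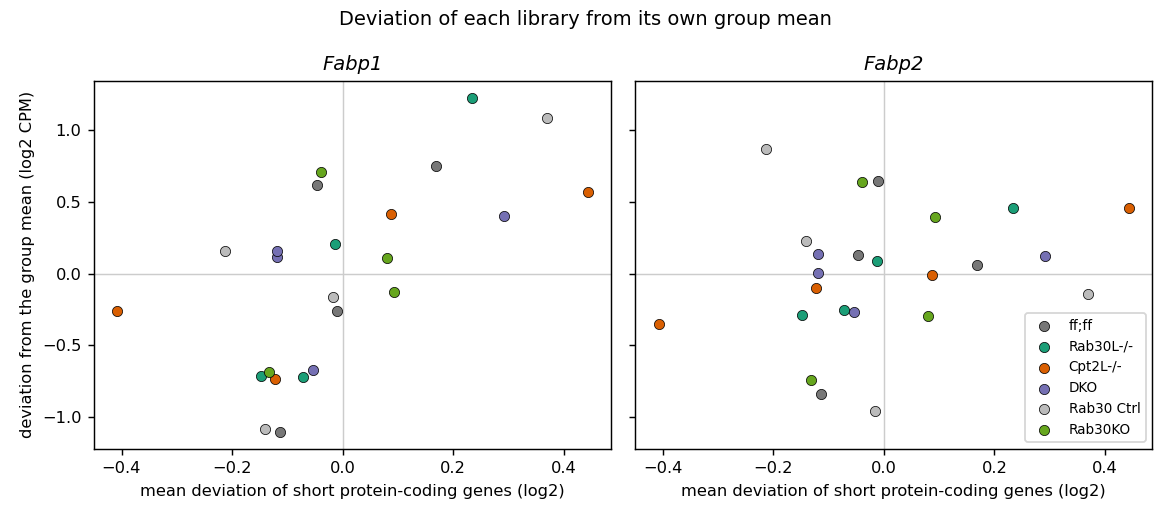
Deviation of each liver from its own group mean in log2 CPM for Fabp1 (left) and Fabp2 (right) against the mean deviation of 235 short protein-coding genes in the same liver; each point is 1 liver, coloured by group. Fabp1 rises with the short genes (r = 0.633) and Fabp2 shows a wider scatter (r = 0.233).

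Fabp2, the carrier of enterocytes, was higher in every liver without hepatocyte Cpt2. The ff;ff livers had 109, 75.8, 38.7 and 72.6 CPM and the Rab30L-/- livers 114, 89.7, 147 and 87.8 CPM. The Cpt2L-/- livers had 178, 212, 311 and 226 CPM and the DKO livers 235, 214, 177 and 232 CPM. The lowest of these 8 livers was above the highest of the other 16 livers of the series. Its log2 fold change was 1.63 ± 0.27 for Cpt2L-/- against ff;ff (3.10-fold, adjusted p = 0.00104), 1.53 ± 0.25 for DKO against ff;ff (2.89-fold, adjusted p = 0.00211) and 0.97 ± 0.17 for DKO against Rab30L-/- (1.96-fold, adjusted p = 0.00175). Every one of the 6 other settings and of the 8 fits that left out a liver kept each of the 3 calls. DKO and Cpt2L-/- differed by −0.10 ± 0.16 with a 95% interval of −0.46 to 0.26.
Rab30KO livers were at 47.9, 65.3, 106 and 125 CPM and Rab30 Ctrl livers at 147, 72.9, 94.4 and 41.4 CPM of Fabp2. These ranges lay almost on each other, and the 95% interval of the log2 fold change was −0.97 to 0.86. Defining genes of the intestinal epithelium were at or near 0 in all livers, with Cdh17 at 1 count, Sis at 0 counts and Cdx2 at 1 count over the 24 libraries. The summed level of the 8 genes of that list, 4837 to 5725 CPM in Cpt2L-/- and 4945 to 8704 CPM in ff;ff, was nearly all Apob, which hepatocytes also express.

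Fabp3, the heart and muscle form, went from a handful of reads to a clear signal with Cpt2 loss. It had 0, 5, 0 and 0 counts in ff;ff and 0, 0, 0 and 1 count in Rab30L-/-. Rab30 Ctrl livers had 1, 0, 0 and 0 counts and Rab30KO livers 0 in all 4, where a count of 0 allows at most 0.194 to 0.247 CPM per library (3 counts). The Cpt2L-/- livers had 78, 140, 219 and 195 counts, or 4.99, 8.80, 14.2 and 12.2 CPM. The DKO livers had 88, 75, 18 and 146 counts, or 6.14, 4.83, 1.17 and 6.84 CPM. All 8 livers without hepatocyte Cpt2 were above all 16 others, and DKO replicate 3 was the lowest of the 8.
Fitted log2 fold changes were 6.74 ± 0.66 for Cpt2L-/- against ff;ff (adjusted p = 2.46e-05), 5.69 ± 0.86 for DKO against ff;ff (adjusted p = 0.00143) and 7.64 ± 0.87 for DKO against Rab30L-/- (adjusted p = 0.000145). Since the reference groups are near 0, these fits depend on few reads, and Fabp3 entered them only through the groups in which it was high. As a ratio of summed counts over summed TMM-scaled library sizes, Cpt2L-/- was 117 times ff;ff (632 against 5 counts, exact 95% interval 50.03 to 363), DKO was 57.5 times ff;ff (327 against 5 counts, 24.4 to 178) and DKO was 307 times Rab30L-/- (327 against 1 count, 54.7 to 12153), with intervals that cover counting error only. Without ff;ff replicate 2, which held all 5 counts of its group, Fabp3 was at least 38.3-fold higher in Cpt2L-/- and at least 18.1-fold higher in DKO, against a floor of 3 counts per library. The log2 fold changes from the fits without that liver were 10.22 and 9.20. The single count of Rab30L-/- was in replicate 4, and without that liver Fabp3 in DKO was at least 19.2-fold higher than in Rab30L-/- against the same floor, with a fitted log2 fold change of 9.31. With no liver left out, the 5 alternative settings that tested Fabp3 gave 6.42 to 7.88 for DKO against Rab30L-/-.
DKO livers had a lower mean than Cpt2L-/- livers, 4.75 ± 2.53 against 10.03 ± 4.02 CPM, with overlapping ranges. On the log2 scale the difference was −1.06 ± 0.47 (unadjusted p = 0.0475, adjusted p = 0.226), and no setting called it.

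Other genes share sequence or position with Fabp3. Of the 774 stretches of 50 bases in its transcript, 289 (37.3%) also occur in transcripts of other genes: the pseudogene Fabp3-ps1 on chromosome 10, Gm10570 on the opposite strand at the 5′ end and Zcchc17 on the opposite strand at the 3′ end. The strand setting of the counting is not given in the sources used here. Fabp3-ps1 had 2 to 12 counts per library, 3 to 6 in Cpt2L-/- and 2 to 7 in ff;ff. Zcchc17 had 143 to 253 counts in ff;ff and 207 to 258 in Cpt2L-/-, with Fabp3 at 0 in 3 of the 4 ff;ff livers. Gm10570 had 4 counts in Cpt2L-/- replicate 3, the liver with the most Fabp3 counts (219), 1 count in ff;ff replicate 3 and 0 counts in each of the other libraries.
Markers of heart and skeletal muscle were low in all livers: Mb, Myh6, Myh7 and Myl2 had 0 counts in all 24 libraries and Ckm had 2 counts in all. The summed level of the 14 muscle genes was 0.768 to 1.94 CPM in Cpt2L-/- and 0.175 to 4.25 CPM in ff;ff. The 4.25 CPM was in ff;ff replicate 2, the ff;ff liver with Fabp3 reads, and was mostly Tnnt2, a troponin of heart muscle, at 3.78 CPM.

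**Figure D4:**
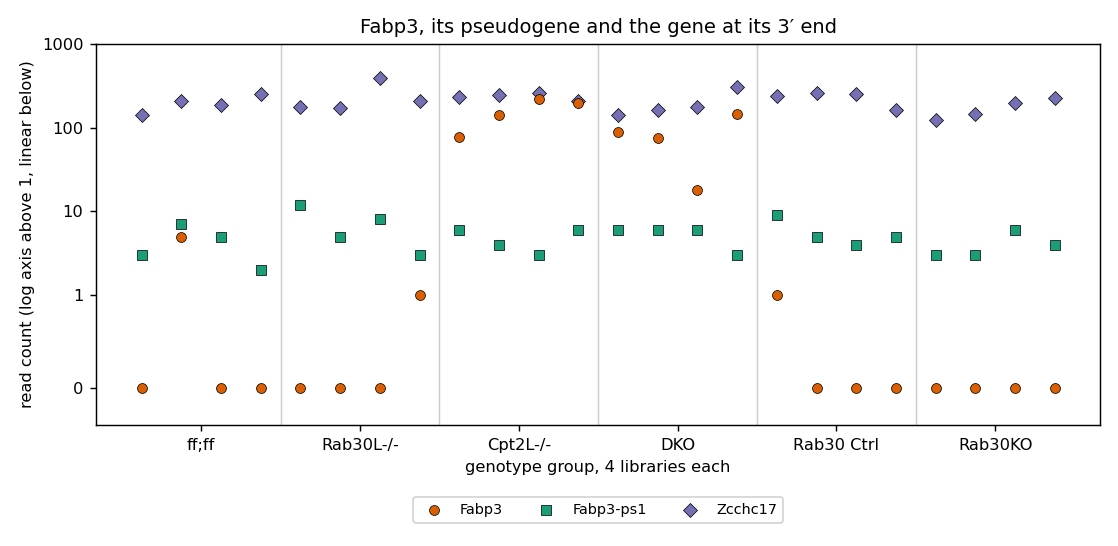
Read counts of Fabp3 (circles), its pseudogene Fabp3-ps1 (squares) and Zcchc17, which overlaps its 3′ end on the other strand (diamonds), in the 24 livers by group, on an axis that is logarithmic above 1 and linear below. Fabp3 lies at 18 to 219 counts in Cpt2L-/- and DKO and at 0 to 5 elsewhere, while Fabp3-ps1 stays at 2 to 12 and Zcchc17 at 122 to 392 in all groups.

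Fabp4, the adipocyte and macrophage form, was also higher in every liver without hepatocyte Cpt2. Levels were 8.73, 12.5, 12.5 and 6.79 CPM in ff;ff and 22.0, 16.2, 25.1 and 33.0 CPM in Cpt2L-/-. The DKO livers had 29.9, 23.9, 23.1 and 40.1 CPM and the Rab30L-/- livers 5.05, 3.38, 13.5 and 3.72 CPM. All 8 livers of Cpt2L-/- and DKO were above all 16 others, and Rab30L-/- replicate 3 stood apart from the other 3 livers of its group. Log2 fold changes of Fabp4 were 1.23 ± 0.25 for Cpt2L-/- against ff;ff (2.35-fold, adjusted p = 0.0029), 1.52 ± 0.24 for DKO against ff;ff (2.87-fold, adjusted p = 0.00138) and 2.15 ± 0.43 for DKO against Rab30L-/- (4.45-fold, adjusted p = 0.0068). All 6 other settings and all 8 fits without a liver kept these 3 calls, and without Rab30L-/- replicate 3 the last value was 2.84.
The interaction for Fabp4 was 0.93 ± 0.52 (adjusted p = 0.313) and became 1.61 (adjusted p = 0.0264) without Rab30L-/- replicate 3, so that 1 liver decides whether it passes. Rab30KO livers (5.51, 5.46, 3.68 and 7.17 CPM) and Rab30 Ctrl livers (10.2, 6.56, 4.80 and 5.35 CPM) overlapped.
Of the adipocyte genes, Retn had 0 counts and Lep 3 counts over the 24 libraries, and Adipoq, the adipokine adiponectin, was at 0 CPM in all Cpt2L-/- livers and at most 0.065 CPM in DKO. Plin1, a lipid droplet coat protein of adipocytes, had 2, 2, 7 and 3 counts in Cpt2L-/- and 2, 6, 1 and 2 counts in DKO, and reads in 2 of the 16 other livers (5 counts in ff;ff replicate 2 and 3 in Rab30KO replicate 4). The summed level of the 8 adipocyte genes was 366 to 549 CPM in Cpt2L-/-, 301 to 479 in DKO and 134 to 728 in ff;ff, nearly all of it Car3 and Cidec, which moved in opposite directions in Cpt2L-/- against ff;ff (−4.04 ± 0.783 and 3.52 ± 0.276 in log2 fold change). The part of adipocytes in the Fabp4 values was not tested. The 11 macrophage genes summed to 213 to 292 CPM in Cpt2L-/-, 179 to 247 in DKO and 190 to 343 in ff;ff, and 10 endothelial genes to 252 to 299, 254 to 336 and 245 to 367 CPM. Single macrophage genes moved both ways within that sum. Of the 11 tested in Cpt2L-/- against ff;ff, 2 were called higher and 3 lower (23.8% of all genes tested were called), with a median log2 fold change of −0.33 against −0.003 over all genes. Of the 10 tested in DKO against ff;ff, 2 were called higher and 4 lower (16.1% of all genes), with a median of −0.53 against −0.018. Chosen here after their values were seen, the higher ones were Gpnmb, a glycoprotein of lipid-laden macrophages (0.368 ± 0.283 CPM in ff;ff, 25.8 ± 3.47 in Cpt2L-/- and 8.86 ± 5.72 in DKO), and the lysosomal protein Cd68 (6.03 ± 1.55, 36.9 ± 9.31 and 43.6 ± 20.4 CPM). Clec4f, Timd4 and Vsig4, genes of resident Kupffer cells, were called lower in Cpt2L-/- (−0.68 ± 0.194, −0.93 ± 0.307 and −0.65 ± 0.202 in log2 fold change). The part of macrophages in the Fabp4 values was not tested.

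Fabp5, the epidermal form, did not pass the primary edgeR test in any comparison. The Rab30L-/- livers had 3.17, 2.31, 5.57 and 2.88 CPM, and the ff;ff livers 1.66, 1.77, 2.02 and 1.97 CPM. All Rab30L-/- livers were above all ff;ff livers, yet the log2 fold change of 0.91 ± 0.31 did not pass (unadjusted p = 0.0136, adjusted p = 0.295). The DKO livers had 1.05, 1.80, 2.66 and 1.4998 CPM, and only replicate 3 reached into the Rab30L-/- range. DKO against Rab30L-/- gave −0.9998 ± 0.35 on the log2 scale with adjusted p = 0.0513, and 4 of the 6 other settings put it under 0.05 (range 0.0269 to 0.0513). When 1 liver was left out, 2 of the 8 edgeR fits called it (adjusted p from 0.0306 to 0.181). In Cpt2L-/- the values were 0.64, 0.943, 1.42 and 2.12 CPM, at −0.54 ± 0.36 against ff;ff (adjusted p = 0.317).
Of the 938 stretches of 50 bases in its transcript, 198 (21.1%) are shared with pseudogenes. One of them, Gm6166 on chromosome 9, had 7, 22, 0 and 14 counts in DKO and 1, 0, 1 and 2 counts in Rab30L-/-. With Gm6166 added, Fabp5 was at 2.39 ± 0.72 CPM in DKO and 3.55 ± 1.43 in Rab30L-/-, where the gene alone was at 1.75 ± 0.682 and 3.48 ± 1.44. Of the 10 macrophage genes tested in DKO against Rab30L-/-, 7 were called lower and 2 higher. In that comparison 30.7% of all genes tested were called and 14.9% were called higher. The median log2 fold change of the macrophage genes was −1.24 against −0.012 over all genes, with sums of 179 to 247 against 242 to 693 CPM. Their part in the Fabp5 values was not tested.
Rab30KO livers had 2.71, 1.14, 3.89 and 1.94 CPM of Fabp5 and Rab30 Ctrl livers 1.85, 3.35, 3.47 and 2.57 CPM, with overlapping ranges.

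Fabp7, the brain form, was low throughout and was not called in any comparison by the primary edgeR test. It was at 2.44, 1.18, 2.09 and 3.74 CPM in ff;ff and 4.42, 2.08, 4.79 and 3.43 CPM in Cpt2L-/- (0.63 ± 0.36, adjusted p = 0.235). Rab30L-/- livers had 3.17, 2.72, 3.23 and 4.93 CPM and DKO livers 1.81, 1.74, 2.08 and 3.37 CPM. The DKO value was −0.63 ± 0.30 against Rab30L-/- (adjusted p = 0.134), where limma-voom called it at −0.86 (adjusted p = 0.0315) and edgeR without DKO replicate 4 at −0.89 (adjusted p = 0.049), and −0.68 ± 0.31 against Cpt2L-/- (adjusted p = 0.224). The interaction was −1.25 ± 0.48 (adjusted p = 0.141; 0.0536 to 0.176 over the 6 settings). The highest means were in the whole-body series, 5.54 ± 1.498 CPM in Rab30KO (5.18, 4.70, 4.54 and 7.75) and 5.05 ± 2.17 CPM in Rab30 Ctrl (5.56, 4.05, 7.83 and 2.78).

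Ordered by mean CPM, the groups fell into 2 separate sets for Fabp2, Fabp3 and Fabp4 only. For Fabp2 and Fabp3 the order began with Cpt2L-/- and then DKO, for Fabp4 with DKO and then Cpt2L-/-, and in each case these neighbours overlapped and the step to the next group did not. For Fabp1 the order was Cpt2L-/-, Rab30L-/-, DKO, Rab30 Ctrl, ff;ff and Rab30KO, for Fabp5 it began with Rab30L-/- and ended with Cpt2L-/-, and for Fabp7 it began with Rab30KO and ended with DKO. Every pair of neighbours in these last 3 orders overlapped. In DKO, replicate 3 had the lowest value of Fabp1, Fabp2, Fabp3 and Fabp4 and the highest of Fabp5, and in Rab30L-/- replicate 3, the deepest library of the series, had the highest value of Fabp1, Fabp2, Fabp4 and Fabp5.

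Likeness of pattern was taken as the smallest root mean square difference of log2 CPM over the 24 libraries, each gene centred on its own mean. The genes nearest to Fabp1 were Dbi (0.503), which encodes the acyl-CoA binding protein, Gm6793 (0.508) and Hmgb3 (0.518). Dbi was at 125 ± 27.6 CPM in ff;ff and 217 ± 101 in Cpt2L-/- and was not called (0.78 ± 0.294, adjusted p = 0.0773). Nearest to Fabp2 were Decr1 (0.396), an enzyme of unsaturated fatty acid oxidation, Gtdc1 (0.398) and the fatty acid elongase Elovl5 (0.405). Decr1 was at 205 ± 33.2 CPM in ff;ff, 381 ± 60.2 in Cpt2L-/- and 394 ± 36.7 in DKO.
Fabp3 was nearest to Ephb2 (0.699), an ephrin receptor, Aqp3 (0.773), a water and glycerol channel, and Ly6d (0.811). Ephb2 was at 0.106 ± 0.169 CPM in ff;ff, 7.79 ± 3.33 in Cpt2L-/- and 4.21 ± 2.48 in DKO. Fabp4 was nearest to Slc27a1 (0.429), a fatty acid transport protein, Crat (0.456), the carnitine acetyltransferase, and Trmt9b (0.475). Slc27a1 was at 40.8 ± 18.3 CPM in ff;ff, 109 ± 16.3 in Cpt2L-/- and 111 ± 25.3 in DKO.
Fabp5 was nearest to Timeless (0.448), AW011738 (0.449) and Vamp5 (0.451), and Fabp7 to Mpdz (0.432), Ppt1 (0.445) and Zfp874a (0.446).

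Related genes were taken from lists. Among further genes of the intracellular lipid binding family, Fabp6, Pmp2 and Crabp1 had 0 counts in all 24 libraries.
Of 16 genes of fatty acid uptake, activation and binding, 15 were tested in Cpt2L-/- against ff;ff, 5 rose and 1 fell (23.8% of all genes were called), with a median log2 fold change of 0.23 against −0.003 over all genes tested. The fatty acid translocase Cd36 rose by 3.40 ± 0.313 (adjusted p = 2.4e-05), Slc27a4 by 1.40 ± 0.197 and Slc27a1 by 1.40 ± 0.278. Slc27a5, which activates bile acids and very long-chain fatty acids, fell by 1.32 (adjusted p = 5.72e-05).
Of 29 targets of Ppara, 17 rose and none fell in Cpt2L-/-, and 20 rose and none fell in DKO, both against ff;ff, where 11.9% and 7.87% of all genes tested were called higher. The median log2 fold changes of the list were 0.855 and 1.12, against −0.003 and −0.018 over all genes. Acot2, a mitochondrial acyl-CoA thioesterase, rose by 3.97 ± 0.454, Pdk4, a kinase that restrains pyruvate oxidation, by 3.83 ± 0.466 and the peroxisomal enzyme Ehhadh by 3.29 ± 0.229 in Cpt2L-/-. All 5 tested genes of a list of 7 on Pparg and its targets in fatty liver rose in Cpt2L-/-, with the lipid droplet protein Cidec at 3.52 ± 0.276, Cd36 as above and the acyltransferase Mogat1 at 2.37 ± 0.564 (median 2.37). In DKO against ff;ff, 3 of the 5 tested were called higher and none lower (median 1.83), with Mogat1 at 1.73 ± 0.675 (adjusted p = 0.108) and the droplet protein Plin4 at 1.83 ± 0.532 (adjusted p = 0.0519) not called. In Rab30L-/- against ff;ff and in Rab30KO against Rab30 Ctrl no gene of the last 3 lists was called. Only 0.479% and 0.022% of all genes tested were called there, so the absence of calls says little about these lists.

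As a check of labels, Rab30 and Cpt2 transcripts did not follow the genotypes simply. Cpt2 was at 95.2 to 167 CPM in the libraries labelled Cpt2L-/- and 128 to 139 in ff;ff, at 96.0 to 120 CPM in DKO, below all ff;ff livers, and at 170 to 268 CPM in Rab30L-/-. Rab30 was at 101 to 231 CPM in DKO and 122 to 188 in Cpt2L-/- against 25.8 to 44.6 in ff;ff and 10.4 to 26.6 in Rab30L-/-. In Rab30KO it was at 5.38 to 17.4 and in Rab30 Ctrl at 6.63 to 30.1 CPM. Gene-level counts do not isolate a deleted exon, so they check these labels only weakly, and the directions above rest on the libraries as labelled. Hepatocyte genes were high in all livers, with sums of 10 genes including Alb from 57770 to 70760 CPM in Cpt2L-/-, 74220 to 91540 in DKO and 114000 to 149700 in ff;ff. Of the 10, 4 were called lower in Cpt2L-/- against ff;ff and 5 in DKO against ff;ff. In these comparisons 23.8% and 16.1% of all genes tested were called in either direction. The medians of the hepatocyte genes were −0.60 and −0.68 against −0.003 and −0.018 over all genes, and their part in the member values was not tested.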

How the data were processed

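Whole-liver RNA from 24 livers was sequenced. The authors aligned reads to GRCm38 (mm10), with HISAT2 and DESeq2 named in the submitters' processing notes, and deposited raw counts per gene and FPKM per gene. The counting tool, annotation and strand setting are not given in the sources used here. The coordinates of 98.0% of the genes were the same as in GENCODE M21. A normalized count column and tables of the authors' own comparisons (fold changes and p-values) were not used.

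Counts were tested with edgeR 4.0.16 (R 4.3.3; TMM, filterByExpr, robust quasi-likelihood) on the 8 livers of each comparison, and on 16 for the interaction, with Benjamini-Hochberg adjustment over all genes tested. The SE is the fold change divided by the square root of F. CPM used TMM over all 24 libraries, with a prior count of 2 on the log2 scale for likeness. FPKM served for levels between genes. The test was also tried on simulated data. Alternatives were scaling by DESeq2 size factors, the Wald test of DESeq2 1.42.0, limma 3.58.1 voom with sample quality weights, 1 joint fit of the 24 libraries, testing genes without a filter or only those with 10 or more counts per library, and leaving out each liver. The 3 nearest genes were named for members whose group means spanned at least 1 log2 unit, and from each list up to 3 called genes with the largest change each way in Cpt2L-/- against ff;ff, beside the members, Rab30 and Cpt2. Not every gene of the lists is reported here. The members and lists were chosen with earlier results of these data known. Replicates are livers the study calls biological replicates, and all pairs differed beyond counting noise. Their number, 4 a group, limits the precision.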

Additional observations from a re-analysis of the deposited data

Results flagged for a closer look

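Within a group, 1 library lay far from the other 3 (a gap to the nearest liver above Dixon's 95% critical value) for Fabp4 in Rab30L-/- replicate 3, at 13.5 CPM with the next liver at 5.05 CPM. Of continuous values such as these, chance gives about 1 in 20. The same measure also marks Fabp3 wherever 1 library has reads and the other 3 have 0, which follows from the zeros even for a single read: ff;ff replicate 2 at 0.295 CPM (5 counts), Rab30L-/- replicate 4 at 0.0758 CPM (1 count) and Rab30 Ctrl replicate 1 at 0.0579 CPM (1 count). ff;ff replicate 2 also held the highest Adipoq, at 0.827 CPM, and the highest Cfd, at 2.30 CPM, of all 24 libraries.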

How the results depend on the processing

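No paired analysis was possible because the replicate numbers follow accession order and tie no liver to another. The counts of members called kept within 1.5 times in 40 of 42 alternative settings: with limma-voom 5 members were called in DKO against Rab30L-/- (also Fabp5 and Fabp7, lower), and with the DESeq2 Wald test 1 was called in DKO against Cpt2L-/-. Leaving out 1 liver gave 3 to 4 members called in Cpt2L-/- against ff;ff, 3 in DKO against ff;ff, 3 to 4 in DKO against Rab30L-/-, 0 in DKO against Cpt2L-/-, Rab30L-/- against ff;ff and Rab30KO against Rab30 Ctrl, and 0 to 1 for the interaction. Per kilobase of the spliced transcript, chosen after seeing the data, Fabp4, Fabp5 and Fabp7 averaged 15.2, 2.30 and 4.64 over the 24 libraries, against 3.08, 0.639 and 3.0 FPKM.

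Of single log2 fold changes, none called in the primary test changed sign. Under limma-voom 6 uncalled values did: Fabp7 in DKO against ff;ff (0.07), Fabp1 in DKO against Rab30L-/- (0.24), Fabp2 in DKO against Cpt2L-/- (0.02), Fabp1 in Rab30L-/- against ff;ff (−0.02), Fabp2 in Rab30KO against Rab30 Ctrl (0.10) and Fabp3 in the interaction (−0.04). Leaving out 1 liver changed the sign of uncalled values that ranged from −0.36 to 0.09 (Fabp5) and −0.33 to 0.25 (Fabp7) in DKO against ff;ff, −0.56 to 0.20 (Fabp1, DKO against Rab30L-/-), −0.21 to 0.07 (Fabp2, DKO against Cpt2L-/-), −0.30 to 0.32 (Fabp2), −0.55 to 0.01 (Fabp5) and −0.08 to 0.42 (Fabp7) in Rab30KO against Rab30 Ctrl, and −2.65 to 2.49 (Fabp3, interaction). The causes were not tested. Fabp1 in Cpt2L-/- against ff;ff lost its call with no filter (adjusted p = 0.173) and in one fit over all libraries (adjusted p = 0.0629). With at least 10 counts in every library Fabp3 could be tested only in DKO against Cpt2L-/-. Depth limits Fabp3, Fabp5 and Fabp7, which had under 6 CPM on average in every group without Cpt2 loss.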
